A study of Mus musculus with 3 samples.

Results

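The genes described here are 9 genes of the mucus made by goblet cells, Muc2, Fcgbp, Clca1, Zg16, Tff3, Agr2, Spink4, Spdef and Muc13. They were found by their symbols among the 31053 genes of the count tables, all 9 were present, and all 9 passed the filter on low counts in each comparison. The study profiled single live cells of the small intestine of wild-type male C57BL/6N mice aged 12 weeks, with 1 library for each of duodenum, jejunum and ileum. Each library pooled the tissue of 3 mice, and cells were sorted as negative for propidium iodide, a dye that enters dead cells. All 3 groups therefore share strain, sex, age and genotype and differ by intestinal segment, and the sample titles add the suffix CD, which the labels do not explain. Because a segment is 1 library, a difference between segments has no replicate check, and the segment cannot be told apart from the library.

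Goblet cells are secretory cells of the gut lining that store mucin in large granules and release it to form the mucus layer between the epithelium and the gut contents. The gel is built from Muc2, a gel-forming mucin that is assembled into disulfide-linked polymers in the endoplasmic reticulum and Golgi and heavily O-glycosylated. Fcgbp, Clca1, Zg16 and Tff3 are secreted with it, Agr2 assists its folding, Spdef is a transcription factor of goblet cell maturation, and Muc13 is a transmembrane mucin of the cell surface.

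After the cell filters, 4255 of 9501 duodenal, 4360 of 8139 jejunal and 8071 of 9595 ileal barcodes remained, with medians of 12424, 11737 and 5536 unique molecular identifiers (UMIs, each standing for 1 captured transcript) per cell. Cell classes are rebuilt here from clusters that were made without the 9 genes, and each name means that the cluster is like that cell type by its markers. The goblet class held 177, 160 and 398 cells, which were 4.16%, 3.67% and 4.93% of the kept cells. The filter on mitochondrial UMIs touched these shares, since it alone removed 5123, 3684 and 1268 barcodes. All 12 goblet markers used for the name were higher in the class than in all other cells in each of the 3 libraries. Their summed level was 37.0, 33.5 and 40.8 UMIs per 10000 UMIs in goblet cells against 0.477, 0.389 and 0.719 in the other cells. The class was named from these same markers, so the values describe it and are no separate check of the name. Markers of enterocytes, the absorptive cells, were also present in the goblet class, at a summed 75.4, 122.8 and 73.3 per 10000 against 546, 961 and 599 elsewhere, and their part in the levels below was not tested. Between 20 and 28 barcode sequences occurred in each pair of libraries, of which 4 to 12 were kept in both.

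Promoter sequence was at hand for 5 of the 9 genes, and the bases before the annotated start are shown for these. The windows hold the 250 bases before the start and come from RefSeq with the build GRCm38.p6, read 5′ to 3′ on the strand of the gene. Capitals mark matches to the searched motifs on either strand, which were the E-box CAGCTG of the kind bound by Atoh1, the forkhead motif TGTTTAC with its variant TATTTAC, and the Cdx motif TTTATGG.
Muc2, chr7:141690090-141690339, plus strand: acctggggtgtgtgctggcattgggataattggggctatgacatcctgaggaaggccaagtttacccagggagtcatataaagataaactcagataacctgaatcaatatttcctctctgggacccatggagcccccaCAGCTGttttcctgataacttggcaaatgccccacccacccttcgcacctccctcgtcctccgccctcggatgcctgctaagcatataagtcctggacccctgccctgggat
Fcgbp, chr7:28070986-28071235, plus strand: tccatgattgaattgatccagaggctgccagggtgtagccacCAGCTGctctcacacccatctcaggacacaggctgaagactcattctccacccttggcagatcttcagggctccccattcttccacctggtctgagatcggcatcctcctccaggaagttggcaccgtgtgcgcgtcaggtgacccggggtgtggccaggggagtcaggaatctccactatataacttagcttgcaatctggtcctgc
Agr2, chr12:35992675-35992924, plus strand: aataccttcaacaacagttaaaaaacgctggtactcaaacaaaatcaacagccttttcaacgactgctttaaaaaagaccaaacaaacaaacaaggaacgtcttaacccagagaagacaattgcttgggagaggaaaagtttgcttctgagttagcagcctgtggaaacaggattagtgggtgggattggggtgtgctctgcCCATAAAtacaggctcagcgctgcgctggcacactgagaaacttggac
Spdef, chr17:27728952-27729201, minus strand: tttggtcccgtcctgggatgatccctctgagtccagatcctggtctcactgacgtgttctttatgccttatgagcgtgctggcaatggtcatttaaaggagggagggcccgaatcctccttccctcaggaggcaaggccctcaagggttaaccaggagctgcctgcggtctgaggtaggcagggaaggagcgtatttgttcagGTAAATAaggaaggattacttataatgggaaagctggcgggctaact
Muc13, chr16:33793787-33794036, plus strand: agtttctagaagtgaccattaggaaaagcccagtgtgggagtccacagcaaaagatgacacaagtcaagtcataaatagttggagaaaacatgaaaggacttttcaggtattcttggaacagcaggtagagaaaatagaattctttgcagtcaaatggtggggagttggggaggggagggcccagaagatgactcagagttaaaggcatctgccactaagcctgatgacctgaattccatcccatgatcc

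The E-box letters began 112 bases before the start of Muc2 and 208 bases before that of Fcgbp. The Agr2 window held the Cdx letters on the reverse strand at -48, and the Spdef window held the forkhead variant on the reverse strand at -47. The Muc13 window, like that of its second listed start, held none of the searched letters. No matches overlapped. Over 32544 windows of all genes, each with 250 bases before and 50 after the start, the E-box letters occurred in 16.4%, the Cdx letters in 2.77%, the forkhead variant in 3.04% and TGTTTAC in 3.66%, so that such matches are common and describe the letters only.

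The 9 genes together took 42.02%, 40.01% and 38.23% of all UMIs of goblet cells in the duodenum, jejunum and ileum, and 0.362%, 0.367% and 0.516% in enterocytes. The share ranged between single goblet cells from 1.95% to 62.2%, with a median of 37.2% over all 735 cells. UMIs count transcript ends whatever the transcript's length, so the genes can be ranked by molecules. Zg16 was the most abundant transcript of goblet cells, Tff3 the next and Fcgbp the third in each of the 3 libraries, ahead of every mitochondrial and ribosomal gene. Muc2 ranked 6, 4 and 4, and Clca1 ranked 4, 9 and 5. Agr2 ranked between 14 and 17, Spink4 between 11 and 18, and Muc13 between 28 and 32, while Spdef, which encodes a transcription factor, ranked 829, 499 and 566.

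**Figure D1:**
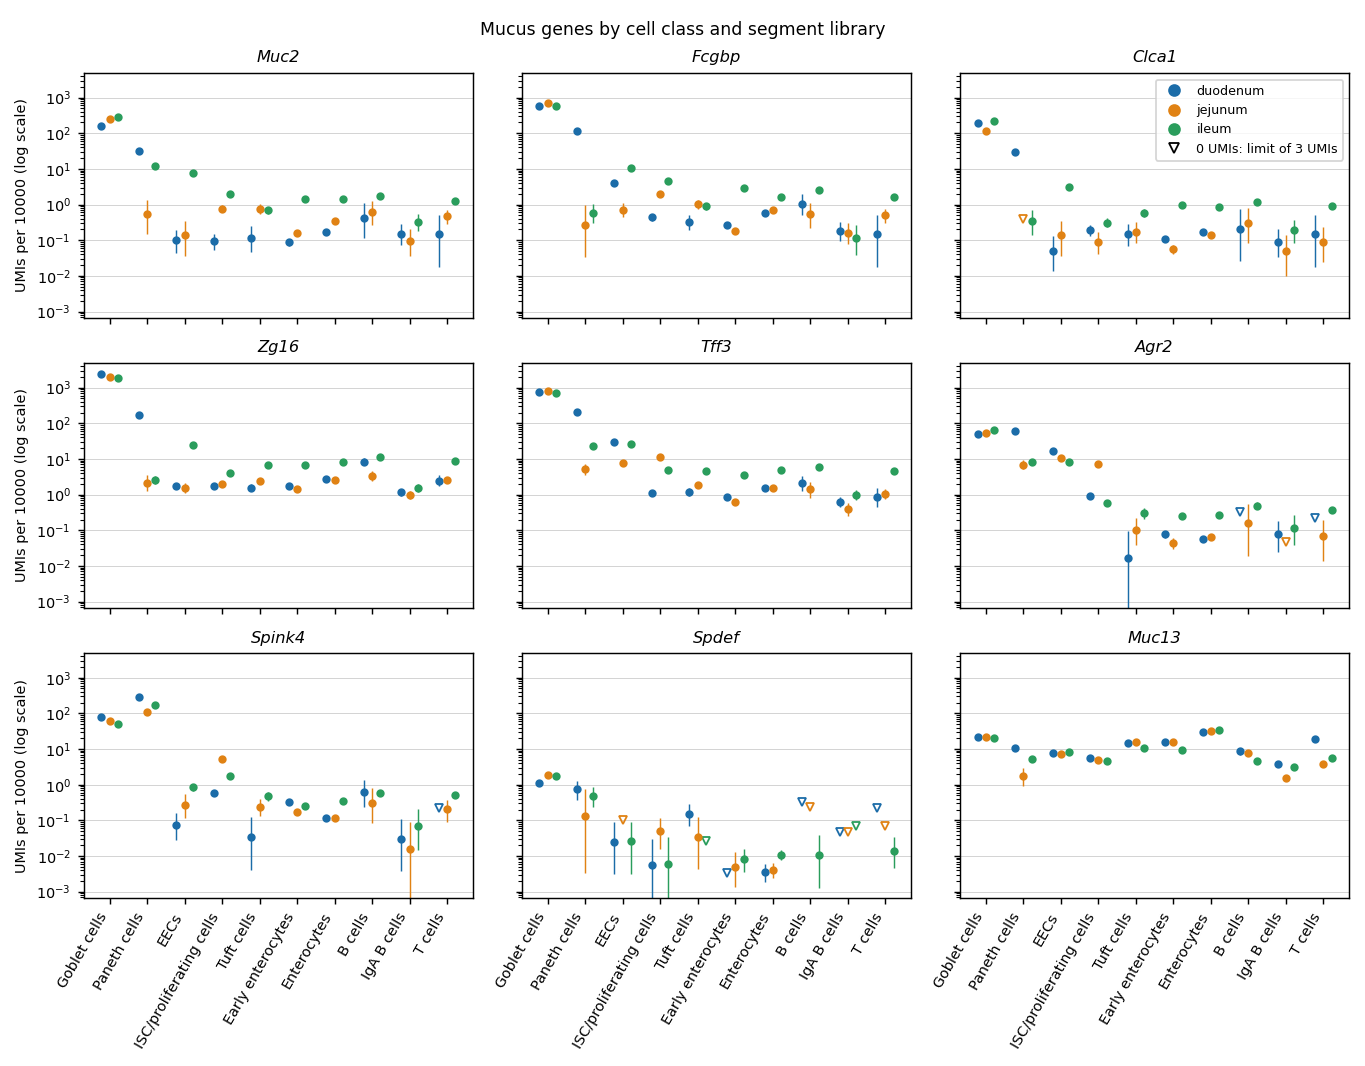
Level of each of the 9 genes by cell class and library, as UMIs per 10000 UMIs on a log axis, with 1 point for each library. Goblet cells stand far above enterocytes and T cells for 8 genes. Paneth cells pass goblet cells for Spink4, and in the duodenum they pass them for Agr2 and come near them for Spdef. Muc13 is higher in enterocytes than in goblet cells.

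Muc2 lies on chromosome 7 from 141690340 to 141754693 on the plus strand (GRCm38, GENCODE M21), in a locus that the annotation tags as fragmented. It was measured at 162, 244 and 291 UMIs per 10000 in goblet cells of the duodenum, jejunum and ileum, and at 0.170, 0.352 and 1.42 in enterocytes. The lowest goblet library lay far above the highest enterocyte library, so the classes did not overlap. Of all Muc2 UMIs of kept cells, 94.8% lay in the 735 goblet cells, and the shares given for the other genes are also of kept cells. In T cells, which do not make mucus and serve here as the measure of free RNA in the droplets, Muc2 stood at 0.145, 0.471 and 1.26 per 10000, and enterocytes were above that level in 2 of 3 libraries. The duodenal T cell value is below 0.218, the level that 3 UMIs give in the 22 T cells of that library. Its order with enterocytes is therefore not settled there.

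Fcgbp, at 7:28071236-28120862 on the plus strand, encodes a large mucus protein first described for binding the Fc part of IgG. Its level in goblet cells was 595, 712 and 596 UMIs per 10000, against 0.562, 0.687 and 1.68 in enterocytes and 0.145, 0.494 and 1.61 in T cells. Goblet cells held 96.3% of its UMIs, the largest share of the 9 genes. Clca1, at 3:145003817-145032776 on the minus strand, encodes a secreted metalloprotease of mucus. It stood at 197, 116 and 224 UMIs per 10000 in goblet cells and at 0.167, 0.138 and 0.848 in enterocytes, and 96.0% of its UMIs were in goblet cells. Its jejunal level was the lowest of the 3, a pattern shared by no other member.

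Zg16, at 7:127050156-127087328 on the minus strand, encodes a lectin that binds Gram-positive bacteria. It reached 2350, 1985 and 1881 UMIs per 10000 in goblet cells. Tff3, at 17:31125306-31129646 on the minus strand, encodes a trefoil peptide of mucus and epithelial repair, and stood at 745, 804 and 692 per 10000. Both were also found in T cells, where Zg16 was at 2.47, 2.65 and 8.89 per 10000 and Tff3 at 0.870, 1.05 and 4.63. In enterocytes they were at 2.73, 2.62 and 8.22 for Zg16 and 1.54, 1.53 and 4.83 for Tff3, ranges that overlapped those of T cells. Within each library Tff3 was higher in enterocytes than in T cells, while Zg16 was so in the duodenum only.

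Agr2, at 12:35992907-36004087 on the plus strand, encodes a protein disulfide isomerase of the endoplasmic reticulum. It was at 48.8, 54.7 and 65.8 UMIs per 10000 in goblet cells and at 16.6, 10.7 and 8.196 in enteroendocrine cells (EECs), the hormone-secreting cells of the gut lining. Only 24 of 53, 6 of 24 and 44 of 93 EECs held an Agr2 UMI, so that the median EEC was at 0, and without the richest cell of each library the EEC levels were 13.7, 6.48 and 5.90. In enterocytes it was at 0.0564, 0.0637 and 0.276. Every goblet library was above every EEC library, and every EEC library above every enterocyte library. EECs held 3.62% of its UMIs, Paneth cells 1.97%, and the class of stem and proliferating cells (ISC/proliferating) 1.62%. In the duodenum 6 of 7 Paneth cells held an Agr2 UMI. Without the richest cell of each library the Paneth levels were 53.2, 4.18 and 3.99 per 10000. The duodenal one was above the goblet level of 48.8. The jejunal stem cell value of 7.32 per 10000 rested on 1 cell with 90.4% of the UMIs and was 0.732 without it, beside 0.936 in the duodenum and 0.576 in the ileum.

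Spink4, at 4:40920052-40931395 on the plus strand, encodes a Kazal-type serine peptidase inhibitor. Its level was 79.5, 60.3 and 50.98 UMIs per 10000 in goblet cells and 288, 113 and 176 in Paneth cells, the antimicrobial cells of the crypt base. Paneth cells thus stood above goblet cells in each of the 3 libraries, and all 24 Paneth cells held at least 1 Spink4 UMI. The class held only 7, 6 and 11 cells, and its richest cell carried 64.2%, 72.2% and 76.8% of the Spink4 UMIs of its library. Without that cell the Paneth levels were 146, 53.6 and 49.6 per 10000, above the goblet level in the duodenum and below it in the other libraries. Goblet cells held 80.2% and Paneth cells 12.8% of the Spink4 UMIs of kept cells. The cell filters had removed 13.6%, 46.7% and 33.6% of the Spink4 UMIs of the duodenum, jejunum and ileum, most of them in barcodes over the upper limits on UMIs or genes, which held 10.8%, 43.9% and 32.2%. The other secreted members were highest, among Paneth cells, in the duodenum, with Zg16 at 172 and Tff3 at 210 per 10000, and these values were 33.3 and 132 without the richest cell for each gene.

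Spdef, at 17:27714352-27728955 on the minus strand, encodes an ETS-family transcription factor and was the scarcest member. Goblet cells had 1.10 (95% exact Poisson interval 0.978 to 1.24), 1.83 (1.63 to 2.03) and 1.73 (1.62 to 1.85) UMIs per 10000, from 288, 333 and 861 UMIs. Such intervals cover counting error only. Goblet cells held 90.8% of the Spdef UMIs, and enterocytes were at 0.00350, 0.00415 and 0.0108 per 10000. T cells had no Spdef UMI in the duodenum or the jejunum and 5 in the ileum. With 3 counts as the limit that a count of 0 allows, the duodenal T cell level could be up to 0.218 per 10000 and the jejunal one up to 0.0673, both below every goblet library. In tuft cells, chemosensory cells of the epithelium, 9 duodenal, 2 jejunal and 0 ileal UMIs were counted. Paneth cells were higher, at 0.742, 0.135 and 0.484 per 10000, from 12, 1 and 10 UMIs in 7, 6 and 11 cells. These were 67.3%, 7.41% and 28.0% of the goblet level, and the duodenal interval of 0.383 to 1.30 overlapped that of goblet cells.

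Muc13, at 16:33794037-33819934 on the plus strand, had another pattern. Its level was 22.3, 22.4 and 20.8 UMIs per 10000 in goblet cells, 30.8, 31.2 and 34.0 in enterocytes, and 15.5, 15.4 and 9.34 in early enterocytes. Enterocytes held 82.7% of its UMIs and goblet cells 4.54%. Tuft cells were at 14.5, 15.7 and 10.7, EECs at 7.93, 7.11 and 8.45, and stem and proliferating cells at 5.602, 5.027 and 4.530. The order from enterocytes through goblet cells, tuft cells and EECs to stem cells was the same in all 3 libraries. Among early enterocytes and tuft cells the order changed with the library. T cells had 19.1, 3.75 and 5.57 per 10000. The duodenal T cell value came from 264 UMIs in 22 cells, where enterocyte markers took 2.19% of UMIs against 1.01% and 1.67% in the other libraries, and the part of these in the value was not tested. Between enterocyte clusters the level of Muc13 ran from 17.3 to 51.7 per 10000, both in the ileum, with the highest in a cluster led by the purine genes Nt5e, Slc28a2 and Ada and the lowest in one led by Fbp1, Fabp1 and Leap2.

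Goblet cells were compared with 5 classes by edgeR's quasi-likelihood test on the UMIs summed per class and library, with the library as a block. Of 12675 genes tested, 16.7% were called higher in goblet cells than in enterocytes and 20.4% lower at a Benjamini-Hochberg adjusted p under 0.05. This split of 2117 higher and 2585 lower genes depended on the scaling, and was 2943 and 2215 with DESeq2 and 3985 and 1342 with library sizes without the members and mitochondrial genes. Of the 9 genes, 8 were called higher, with log2 fold changes from 7.95 for Spdef to 9.68 for Fcgbp, and none was called lower. Each of the 8 was higher in 3 of 3 libraries. The fold change of Muc2 was 9.24 on the log2 scale (SE 0.86, adjusted p = 1.22e-09), that of Zg16 was 9.20 (SE 0.71, adjusted p = 3.28e-11) and that of Agr2 was 9.03 (SE 0.96, adjusted p = 1.39e-08). All classes with a sum of at least 10 cells entered the same fit and shared its estimate of the spread. With the library as a block, the p-values measure how far class differences vary between the 3 segment libraries.

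Muc13 was lower in goblet cells than in enterocytes in 3 of 3 libraries as a share of all UMIs, with a log2 fold change of -0.62 (SE 0.50) that edgeR did not call (adjusted p = 0.367). The ratio of its goblet level to its enterocyte level was 0.722, 0.719 and 0.613 in the 3 libraries. Mitochondrial genes took a median of 28.9%, 28.9% and 12.0% of UMIs in enterocytes and 6.61%, 5.57% and 4.44% in goblet cells, and the other 8 mucus genes took most of the share given above. With the mitochondrial genes alone left out of the total the ratio was 0.573, 0.567 and 0.558. With the members left out it was 1.24, 1.19 and 0.987, and with the members and the mitochondrial genes left out it was 1.05, 0.992 and 0.930. The direction thus turned with the denominator in the duodenum and the jejunum, while the ileal ratio stayed below 1. The edgeR fit with library sizes without the members and mitochondrial genes gave a log2 fold change of -0.02 (adjusted p = 0.993). The other 8 genes were called higher in that fit too.

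Against T cells, where 22.1% of all genes were called higher in goblet cells, all 9 were called, with Muc13 at a log2 fold change of 2.28 (SE 0.54, edgeR adjusted p = 0.000856) and the others from 7.998 for Spdef to 11.10 for Fcgbp. All 9 were also called against stem and proliferating cells, where 23.9% of all genes were. The smallest changes there were those of Muc13 (log2 fold change 2.89), Agr2 (4.97) and Spink4 (5.57). Against EECs, with 14.5% of all genes called higher, all 9 were called again. Agr2 differed least among the secreted and folding genes there, by 2.85 (SE 0.73, edgeR adjusted p = 0.00302), followed by Tff3 with 6.01. Against tuft cells, with 14.1% of all genes called higher, 8 of 9 were called. Spdef stood 5.49 above tuft cells (SE 0.61), and Muc13 missed the threshold at 1.26 (SE 0.51, edgeR adjusted p = 0.0647) although it was higher in 3 of 3 libraries.

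**Figure D2:**
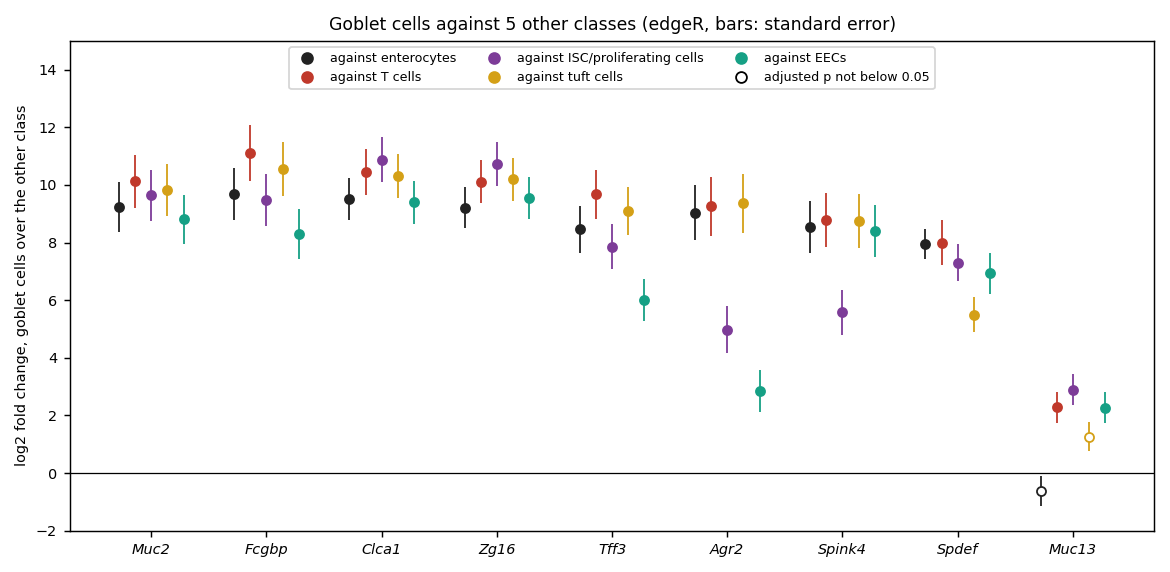
Log2 fold change of goblet cells against 5 other classes for each of the 9 genes from edgeR. Bars are 1 SE from the fit of all classes over 3 libraries. Apart from Agr2 against stem cells (4.97) and EECs (2.85), the values of the first 8 genes lie between 5.49 and 11.10, and Muc13 lies between -0.62 and 2.89.

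Whether the low levels outside goblet cells were above the T cell level was asked for 5 other classes. Apart from Muc13, the T cell level was a median of 0.0490%, 0.127% and 0.518% of the goblet level in the duodenum, jejunum and ileum, and the enterocyte level was 0.116%, 0.138% and 0.463%. The duodenal T cell median rests on very few UMIs. Muc2, Fcgbp and Clca1 were each at 0.145 per 10000 there, below the 0.218 that 3 UMIs give, and Agr2, Spink4 and Spdef were at 0. Of all genes, 31.0% were called higher in enterocytes than in T cells, and of the 9 Muc13 was (log2 fold change 2.91, SE 0.55, edgeR adjusted p = 4.34e-05). The count depended on the fit, being 6 with only these 2 classes, 4 without the filter on low counts or with sums of at least 20 cells, and 3 with at most 30000 UMIs per cell. The share of all genes called in these other fits is not given beside the counts. They are therefore not read as a change particular to the members. In early enterocytes, against 25.5% of all genes, Muc13 alone was called (log2 fold change 1.28, SE 0.52, edgeR adjusted p = 0.0434), higher in 2 of 3 libraries, and the call was lost with DESeq2, without TMM, without the library block, and without the jejunal or the ileal library. In tuft cells 18.9% of all genes and none of the 9 were called by edgeR. At an unadjusted p under 0.05 there was 1, Spdef, whose value was 2.51 (SE 1.16, adjusted p = 0.0960). It was 0.25 without the duodenal library and 8.49 without the ileal one.

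EECs and stem cells differed from this. In EECs 20.1% of all genes and 3 of the 9 were called above T cells by edgeR. Agr2 stood 6.41 higher on the log2 scale (SE 0.94, adjusted p = 4.51e-06), Tff3 3.66 higher (SE 0.66, adjusted p = 7.47e-05) and Fcgbp 2.80 higher (SE 0.73, adjusted p = 0.00311), each in 3 of 3 libraries. Tff3 was at 29.1, 7.90 and 26.1 UMIs per 10000 in EECs, and Fcgbp at 3.96, 0.715 and 10.4. In the ileum the richest EEC for each gene held 54.7% of the Tff3 UMIs, 86.4% of those of Fcgbp and 87.8% of those of Muc2, and without it the ileal values were 12.1 for Tff3, 1.44 for Fcgbp and 0.956 for Muc2. For Fcgbp that is below the ileal T cell level of 1.61, so its direction in the ileum rested on 1 cell. In stem and proliferating cells 19.7% of all genes and 3 of the 9 were called above T cells, with log2 fold changes of 4.29 for Agr2, 3.22 for Spink4 and 1.81 for Tff3. All 3 of these calls were lost without the jejunal library, in which the richest cell for each gene held 90.4% of the Agr2 and 64.5% of the Spink4 UMIs of the class.

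Single cells of a similar kind occurred in other classes. Cells in which the 8 genes without Muc13 took over 5% of UMIs were 6 of 24 Paneth cells, 5 of them in the duodenum, which held 88.1% of the UMIs of these genes in their class. They were 16 of 10504 enterocytes, which held 14.6%, and 2 of 1132 early enterocytes, which held 38.2%. The same was true of 1 of 50 dendritic cells, with 82.0%, and 1 of 753 T cells, with 13.5%. Scrublet, a caller of doublets, marked 0, 2 and 171 barcodes in the duodenum, jejunum and ileum and so did not work in the duodenum or the jejunum, and whether these cells are doublets was not tested.

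The share of cells with a UMI of a gene depends on depth, and the median was 10009 UMIs per goblet cell and 4528 per T cell. With each cell thinned to 800 UMIs, 99.7% of goblet cells held Muc2, 100% Fcgbp, 98.4% Clca1, 99.6% Zg16 and 99.5% Tff3. The same genes were found in 8.10%, 8.23%, 4.78%, 45.8% and 27.6% of T cells. Without thinning these shares were 99.9% to 100% in goblet cells and 27.5% to 94.2% in T cells, and no cell was too shallow to be thinned. Agr2 was found in 77.7% of goblet cells and 2.79% of T cells, and Spink4 in 66.7% and 4.78%. Muc13 was found in 85.03% and 14.5%. Spdef was the exception, with 12.52% of thinned goblet cells and 69.3% of unthinned ones, against 0 of 753 thinned and 0.664% of unthinned T cells, so its detection in goblet cells rested on depth. Nearly all goblet cells held the 5 secreted transcripts at this depth, and the shares holding Agr2 or Spink4 were smaller.

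Along the intestine, Muc2 was higher in goblet cells of the more distal libraries, with a ratio of 1.505 (95% interval for counting error 1.48 to 1.52) of jejunum to duodenum and 1.79 (1.77 to 1.81) of ileum to duodenum. These are values of 1 library each and carry no test. Muc2 followed the order duodenum, jejunum, ileum in each of 4 sub-clusters of goblet cells, with ileum over duodenum between 1.45 and 2.44. Clca1 was lowest in the jejunum in each sub-cluster, and overall at a ratio of 0.590 (0.581 to 0.600) to the duodenum, while the ileum was 1.93 times (1.90 to 1.96) the jejunum. Spink4 ran the other way from Muc2, with an ileum to duodenum ratio of 0.642 (0.630 to 0.654), below 1 in each sub-cluster at 0.531 to 0.905. Spdef had a ratio of 1.57 (1.37 to 1.80) of ileum to duodenum, from far fewer UMIs.

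The other genes differed less between segments. The ratio of ileum to duodenum was 1.35 for Agr2, 1.00 for Fcgbp, 0.935 for Muc13, 0.928 for Tff3 and 0.8001 for Zg16, and 1.14 for Clca1. The order turned for Tff3 in 3 of 4 sub-clusters, at 1.07, 1.07 and 1.14 against 0.740 in the Mmp7 cells, and for Zg16 in 2 of 4, both at 1.04. For Muc13 the direction turned when levels were averaged over cells (1.05), and it was 4.89 with the T cell level subtracted, as that level was 86.0% of the goblet level in the duodenum. For Fcgbp the interval of 0.996 to 1.01 included 1, although the ratio was 0.692 in the sub-cluster led by Mmp7 and 1.49 in that led by Gm26917. By ileum to duodenum 3 of the 9 genes, Muc2, Spink4 and Spdef, differed over 1.5-fold, but Spdef was at 1.47 with the members left out of the total, 1.45 as a mean over cells, and between 1.12 and 1.85 by sub-cluster. The 12 goblet markers spanned 0.499 for Rep15 to 1.68 for Klk1 by the same ratio. Median depth per goblet cell was 13018, 8190 and 9318 UMIs, and the T cell level of most members was highest in the ileum, at no more than 1.01% of the goblet level apart from Muc13.

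**Figure D3:**
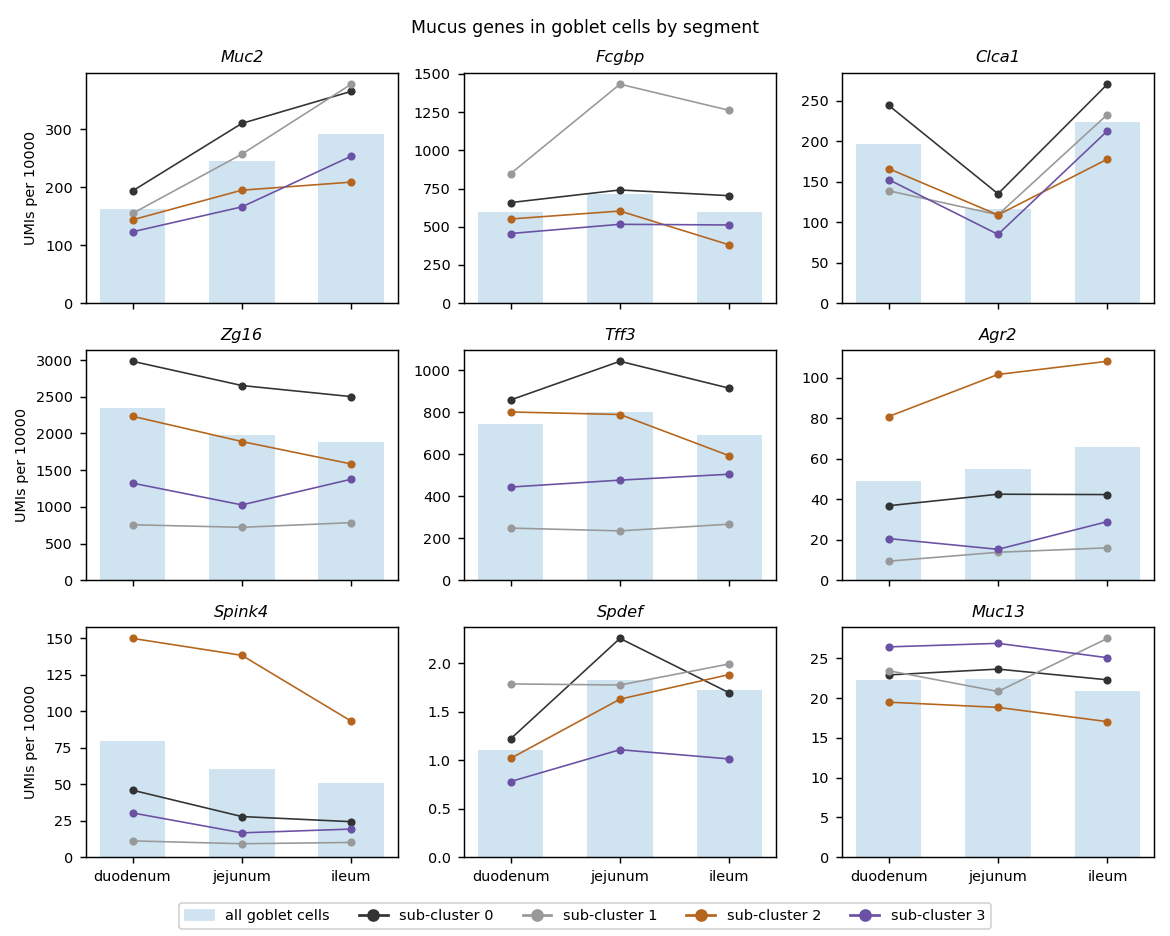
Level of each gene in goblet cells of the 3 libraries, as UMIs per 10000 UMIs. Bars give the level in all goblet cells and lines the level in each sub-cluster, without intervals. Muc2 stands at 162, 244 and 291, Clca1 is lowest in the jejunum at 116, and Spink4 goes from 79.5 in the duodenum to 50.98 in the ileum.

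Within the goblet class the members varied to very different degrees. The ratio of the 90th to the 10th percentile over cells was lowest for Muc13, at 2.76, 2.69 and 2.94 in the 3 libraries. It was 3.48, 4.19 and 4.62 for Muc2, 2.79, 4.56 and 5.36 for Fcgbp, and 5.74, 6.90 and 4.54 for Clca1. It was 8.94, 10.9 and 11.8 for Zg16, 9.72, 8.58 and 8.41 for Tff3, and 15.2, 14.5 and 24.4 for Agr2. Spink4 varied most among the genes with such a ratio, at 80.2, 78.8 and 55.4, and the richest 10% of goblet cells held 53.1%, 64.1% and 64.1% of its UMIs, against 23.1%, 26.7% and 24.5% for Muc2. Spdef had no such ratio, as its 10th percentile was 0 in each library, with 57, 49 and 120 cells without a UMI. By these measures the UMIs of Agr2 and Spink4 were spread more unevenly over goblet cells than those of Muc2. The parts of depth and of counting noise in this were not tested.

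**Figure D4:**
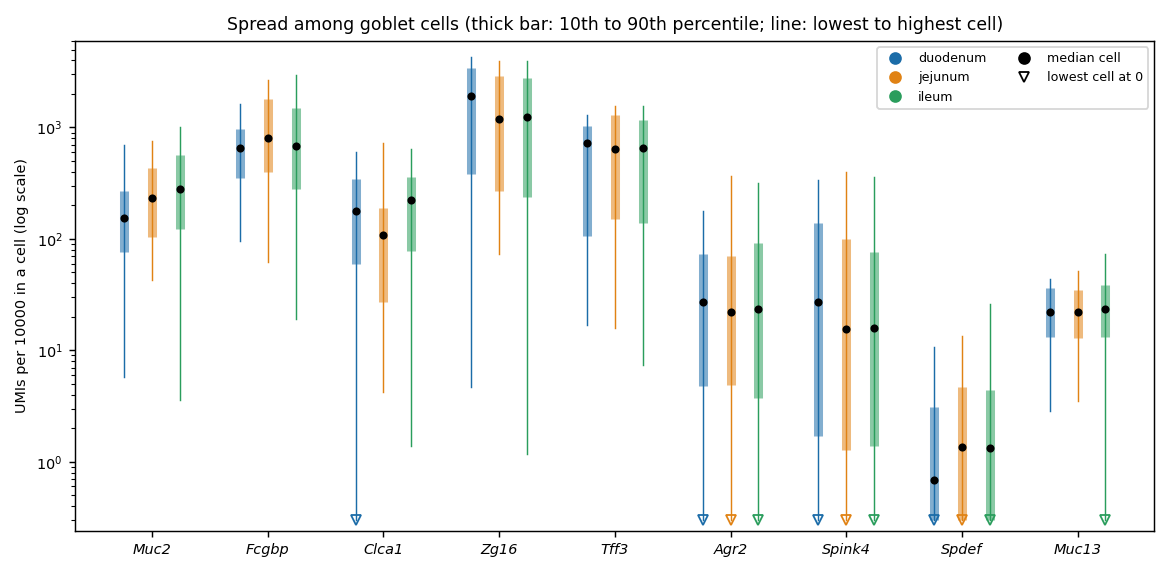
Level of each gene in single goblet cells of the 3 libraries, as UMIs per 10000 UMIs of the cell on a log axis, with the median and the 10th and 90th percentiles. Apart from Spdef, whose 10th percentile is 0, Spink4 and Agr2 spread over the widest range, and Muc13 over the narrowest.

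The genes also differed in which cells were rich in them. As a description over 177, 160 and 398 cells of 1 library each, which share depth and a common total, Zg16 and Tff3 had Pearson's r of 0.86, 0.82 and 0.73 in the duodenum, jejunum and ileum on the log scale. Clca1 and Zg16 had 0.69, 0.63 and 0.70, and Agr2 and Spink4 had 0.66, 0.52 and 0.49. Fcgbp and Muc2 had 0.67, 0.51 and 0.62. Fcgbp and Agr2 were near 0 or opposed, at 0.10, -0.11 and -0.39, and so were Fcgbp and Spink4, at 0.02, -0.15 and -0.40. Spdef, with few UMIs per cell, had r between -0.06 and 0.28 with every other member.

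**Figure D5:**
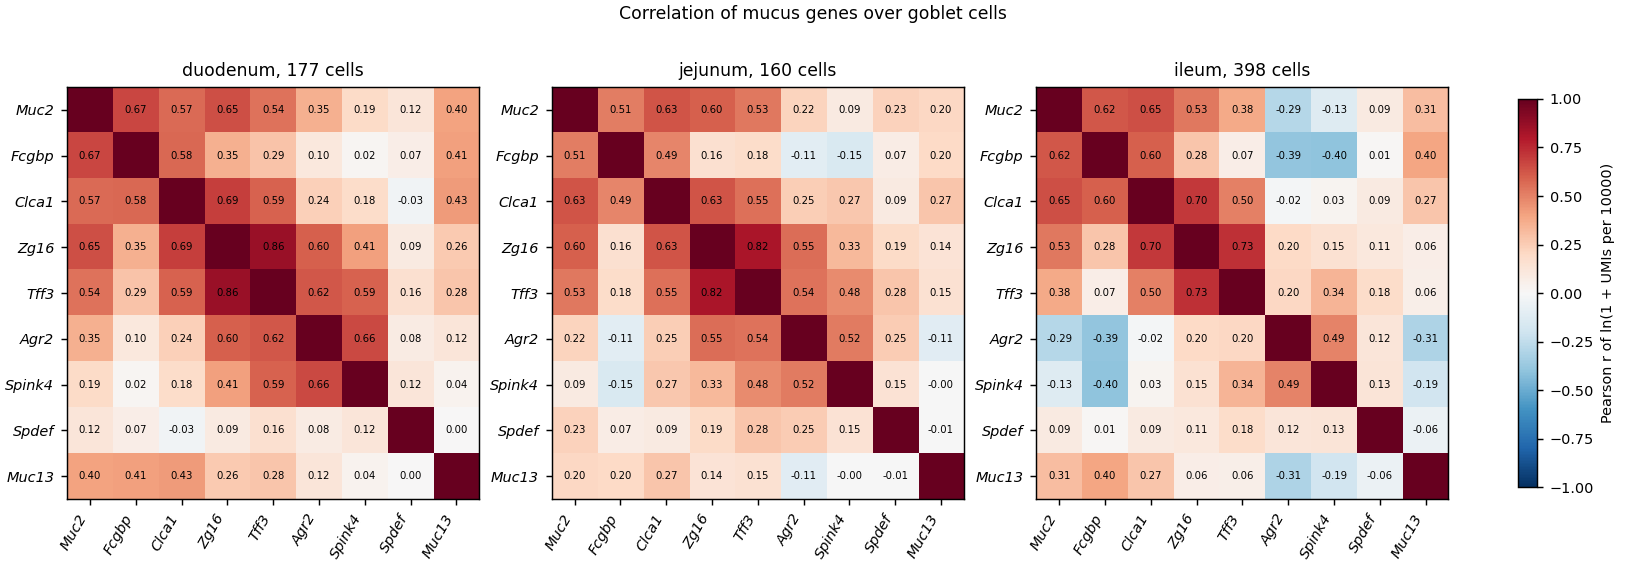
Pearson's r between the log levels of each pair of the 9 genes over goblet cells, in 1 panel for each library. Zg16 with Tff3 gives the highest values, from 0.73 to 0.86, and Fcgbp with Agr2 or Spink4 the lowest, down to -0.40 in the ileum.

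Clustering the goblet cells without the members gave 4 sub-clusters, of 263, 212, 174 and 86 cells. The first was led by Ido1 and Sprr1a, the second by Neurl3 and Gm26917 with a median of only 2525 UMIs, the third by Mmp7 and ribosomal protein genes with a median of 22241 UMIs, and the fourth by enterocyte genes such as Gda and Apoa4. They are called by these genes here. The marker rule, applied among these 4 sub-clusters only, gave the second the name of Paneth cells and the fourth that of enterocytes. The defensin genes Gm14851 and Defa21 were among the leading genes of the second. The third scored highest for T cell markers (0.957), of which only 2 were detected, and was left unnamed like the first. Such scores rank the sub-clusters against each other and do not measure nearness to a cell type. The part of Paneth cell and enterocyte transcripts in the levels below was not tested. In the Mmp7 cells Agr2 was at 99.8 and Spink4 at 116 UMIs per 10000, against 40.7 and 31.3 in the Ido1 cells. The ratio was above 1 in each library, at 2.20, 2.39 and 2.56 for Agr2 and 3.26, 4.95 and 3.82 for Spink4 in the duodenum, jejunum and ileum. The other 6 secreted and surface genes were lower in the Mmp7 cells, between 0.620 for Muc2 and 0.791 for Muc13 of the Ido1 level, and Spdef was at 0.966. In the Gm26917 cells Fcgbp was 1.76 times the Ido1 level, whereas Zg16 was at 0.287, Tff3 at 0.278, Agr2 at 0.352 and Spink4 at 0.326 of it. The part of the difference in depth in these ratios was not tested.

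Other genes of mucus production were read from 6 lists in the comparison with enterocytes, where the median log2 fold change of all 12675 genes was -0.11. Of the genes of folding and secretory stress in the endoplasmic reticulum, 32 of 36 tested were called higher and 0 lower by edgeR, with a median log2 fold change of 1.72. They included Ern2, the stress sensor of mucous cells (8.64), Txndc5, a protein disulfide isomerase (6.10), and the chaperones Calr (0.73) and Hsp90b1 (0.71). Of the genes of mucin O-glycosylation, 19 of 35 tested were higher and 4 lower, with a median of 1.18. Galnt5 (8.82) and Galnt12 (6.60), which add the first sugar to mucins, were higher, and St3gal4 (-2.42), a sialyltransferase, and Gcnt4 (-3.40), a branching enzyme, were lower.

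Among the transcription factors of goblet and other secretory cells 7 of 11 were higher and 1 lower, with Atoh1, the regulator of the secretory lineage, at a log2 fold change of 8.26, Foxa3 at 7.87 and Hes6 at 1.31, and with Cdx2, a regulator of intestinal identity, at -0.72. Of the granule exocytosis genes 7 of 13 were higher and 2 lower. Rab27a (8.37), which tethers secretory granules, was among the former, and Snap23 (-0.66) and Cftr (-2.29), a chloride channel, were the lower pair. Of the other mucins 4 were tested, of which Muc3a (4.59) and Muc4 (1.89) were higher and Muc3 (-2.55) was lower. Of the other products of the mucus layer 3 of 15 were higher and 5 lower, shares near the 16.7% and 20.4% of all genes. Agr3 (6.91), a relative of Agr2, and Lypd8 (5.54), which binds flagellated bacteria, were called higher, and Clca4b (-4.02) and Clca4a (-4.26), relatives of Clca1, were called lower.

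The genes whose levels were most like those of each member over 32 sums of class and library, among 12666 other genes, were given by Pearson's r of the log level. This is a description, since the sums share libraries and the goblet sums carry most of the range. Muc2 was followed most closely by Tpsg1 (r = 0.95), Fer1l6 and Rasd2, and Fcgbp and Tff3 both by Capn9 (0.94). Clca1 was followed by Fer1l6 (0.93) and Zg16 by Wincr1 and Fer1l6 (0.95 each). Spdef was closest to Ern2 (0.92) and Spink4 to Galnt5 and Tpsg1 (0.89 each). Agr2 stood with 5330417C22Rik (0.91), Mcf2l and Rab15. Muc13 had other neighbours, Clrn3 (0.93), Entpd8 and Arhgef16 (0.92 each).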

How the data were processed

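Single cells of 3 small intestinal segments were measured by droplet-based 3′ single-cell RNA sequencing. The deposited values are raw UMI counts per gene and barcode, which the authors made with Cell Ranger 3.0.2 on the mouse genome GRCm38 (mm10), without normalization; the gene annotation is not given in the sources used here. The 9 genes and all gene lists were chosen with earlier results of these data known.

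After the study's filters, barcodes were kept whose UMIs numbered 800 to 50000 over 200 to 6000 genes, with no more than 40% of them mitochondrial. Cells were integrated and clustered with Seurat 5.3.0 (2000 variable genes without the members and pathway lists, 30 components, resolution 0.8), and clusters were named from marker lists. Scrublet calls were not removed. Levels are summed UMIs per 10000 UMIs, with exact 95% Poisson intervals. With 1 library a segment no test between segments was possible. Class sums of at least 10 cells were tested with edgeR 4.0.16 (TMM, quasi-likelihood, library as block), with p-values adjusted by Benjamini-Hochberg over all genes tested. A prior count of 2 was set only for the log2 CPM of the class sums, and the fold changes used the default of edgeR. The fits were checked on simulated data. The standard error is the fold change divided by the root of the F statistic. DESeq2 1.42.0 was an alternative. Correlations use the natural log of 1 plus UMIs per 10000. Named pathway genes were, of each list, the 2 genes with the largest and the 2 with the smallest log2 fold change among those called against enterocytes, and, for each member, the 3 genes tested with the highest r of log2 CPM over the class sums. A further gene that this rule picked from the exocytosis list is not reported here. Nothing says that mice were kept apart within a library. The p-values therefore measure only how class differences vary between the libraries, over all classes of the fit, and not the spread between mice.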

Additional observations from a re-analysis of the deposited data

Results flagged for a closer look

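The cell filters removed barcodes that were rich in mucus transcripts, which no comparison uses. Barcodes in which the 8 genes without Muc13 took over 5% of UMIs numbered 8 of 5246 removed barcodes in the duodenum, 11 of 3779 in the jejunum and 22 of 1524 in the ileum, above the limit that a count of 0 allows. Among kept barcodes they were 182, 159 and 412, or 4.28%, 3.65% and 5.10%. Of the barcodes removed for mitochondrial UMIs alone, 4 of 5123, 7 of 3684 and 5 of 1268 were of this kind. Over all barcodes the share was 2.00%, 2.09% and 4.52%, so the difference between the ileum and the other segments was wider before the filter than after it. All removed barcodes together held 13.6%, 46.7% and 33.6% of the Spink4 UMIs and 9.06%, 13.2% and 17.7% of the Agr2 UMIs of the 3 libraries, against 2.76% to 5.76% for Muc2, Fcgbp, Clca1, Zg16 and Tff3.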

How the results depend on the processing

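The counts of members called in the 5 goblet cell comparisons kept within 1.5 times under every alternative fit run. Each member kept the sign of its fitted log2 fold change. The simple ratio of Muc13 against enterocytes turned with the denominator in the duodenum and the jejunum. The median log2 fold change of all genes against enterocytes was -0.11, 0.18 with DESeq2 and 0.43 with the changed library sizes, and against T cells it was -0.03, and -0.85 without TMM with 1476 genes higher and 5672 lower in place of 2798 and 2927. The Muc13 call against tuft cells, absent in the main fit, appeared in 9 alternatives. The counts of members above T cells were less firm. They are given without the share of all genes called in each alternative fit, so they are not read as a change particular to the members. For enterocytes the count of 1 became 4 without the filter on low counts and with sums of at least 20 cells, 6 in a fit of only the 2 classes, 3 with at most 30000 UMIs per cell, and 2 without Scrublet calls, at resolution 0.4 and with the members among the variable genes. For early enterocytes the count of 1 became 0 without TMM, with library sizes without members and mitochondrial genes, with DESeq2, without the block and with sums of at least 5 cells, and ranged from 0 to 1 when single libraries were left out. For stem cells the count of 3 ranged from 0 to 3 in the same way, being 0 without the jejunum. For tuft cells the count of 0 became 2 without the filter on low counts and 1 with sums of at least 20 cells, without Scrublet calls, without the tenth of cells richest in enterocyte markers, at resolutions 0.4 and 1.2, with the members among the variable genes and with the Cd8b1 cluster added to T cells, and ranged from 0 to 1 with libraries left out. For EECs the count of 3 became 5 in a fit of only the 2 classes. The value of Muc2 in EECs against T cells was 1.32 on the log2 scale, and ranged from -1.07 without the ileum to 1.82 without the jejunum. The Muc13 ratio of ileum to duodenum was 1.05 as a mean over cells and 4.89 after subtraction of the T cell level, which stood at 86.0% of the goblet level in the duodenum. The cause of these changes was not tested. Of the segment ratios under alternatives, 66 moved beyond their counting interval without turning, 2 turned in direction, and 88 stayed within it. No paired analysis was possible because each segment is 1 library with replicate number 1 of its own group; the library is the block of the class comparisons, and without the replicate block the counts were 8, 9, 9, 8 and 9 for goblet cells against enterocytes, T cells, stem cells, tuft cells and EECs, and 2 for EECs and 2 for stem cells against T cells. Stem cell comparisons gave no value at resolution 0.4 or with the members among the variable genes, since their cluster merged with Paneth cells. Alternatives with the Cd8b1 cluster, other denominators and changed library sizes were added after the data were seen. Depth limits Spdef most.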
